A study of Mus musculus with 2 samples.

Results

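UMI counts of 10 genes that act in the first gap (G1) phase of the cell cycle were examined in nuclei of the mouse cerebellum at postnatal day 1. The genes were the D-type cyclins Ccnd1, Ccnd2 and Ccnd3, the E-type cyclins Ccne1 and Ccne2, the kinase gene Cdk6, the inhibitors Cdkn1a, Cdkn1b and Cdkn1c, and Mycn. They were chosen by symbol and are 10 of the 32285 genes counted. Control cerebella came from mice without Cre, labelled Tox3f/f or Tox3f/+. The other library is labelled Nestin-cre;Tox3f/f, a conditional knockout (cKO) in which the Nestin promoter drives Cre in neural precursors and so reaches their progeny. Each library was made from 12 pooled cerebella, so each group had 1 library and differences have neither a replicate check nor a test. Intervals given below are exact 95% intervals for counting error, and the spread between animals is not in them.

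D-type cyclins bind Cdk4 or Cdk6, and the active kinase phosphorylates the retinoblastoma protein, which frees E2F factors to transcribe the genes of DNA synthesis. E-type cyclins act with Cdk2 at the step into S phase. Cdkn1a, Cdkn1b and Cdkn1c encode the inhibitors p21, p27 and p57 of these kinases, which hold cells outside the cycle or bring them out of it. Mycn encodes a transcription factor that Sonic hedgehog induces in granule neuron progenitors (GNPs), the cells of the external granule layer that multiply around birth and give rise to granule neurons (GN). Ccnd1 and Ccnd2 are also known as hedgehog-responsive genes of these progenitors, and Cdkn1b as a gene of those that leave the cycle.

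Promoter sequences are shown for Mycn and Cdkn1b, because these genes differed in opposite directions between the libraries in nuclei named GNP-like, as given further on. By the ratio alone, the Mycn difference was larger in the dividing cluster of these nuclei, and that of Cdkn1b in the non-dividing cluster. For both genes the intervals of the ratios overlapped between the clusters, and the difference between the clusters was not tested. Windows of 250 bases before the annotated start were taken from RefSeq (GRCm38.p6), which held entries for Ccnd3, Ccne1, Cdk6, Cdkn1a, Cdkn1b and Mycn. Ccnd1, Ccnd2, Ccne2 and Cdkn1c had none in the table used. Both strands were searched for the E2F words TTTGGCGC, TTTCCCGC, TTTGCCGC and TTTCGCGC, for the GLI word TGGGTGGTC, and for the E-box words CAGCTG and CAGATG that ATOH1 binds. Of 32851 windows, 1.86% held an E2F word, 0.225% the GLI word and 25.5% an E-box word. The Mycn window held 3 E2F matches, which began 183, 179 and 168 bases before the start, the first and the second overlapping on opposite strands. The windows of the other members held no E2F word, and no member's window held the GLI word or an E-box word. The Mycn stretch, the part of its window outside annotated exons, lies at chr12:12941915-12942086 on the minus strand, and the Cdkn1b window lies at chr6:134920151-134920400 on the plus strand, just before the first exon. Both are written 5′ to 3′, and capitals mark the E2F matches. A match is a run of letters and was not tested for binding.
Mycn: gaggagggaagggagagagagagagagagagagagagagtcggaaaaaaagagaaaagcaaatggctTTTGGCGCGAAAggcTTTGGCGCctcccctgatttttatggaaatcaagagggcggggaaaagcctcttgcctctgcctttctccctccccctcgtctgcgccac
Cdkn1b: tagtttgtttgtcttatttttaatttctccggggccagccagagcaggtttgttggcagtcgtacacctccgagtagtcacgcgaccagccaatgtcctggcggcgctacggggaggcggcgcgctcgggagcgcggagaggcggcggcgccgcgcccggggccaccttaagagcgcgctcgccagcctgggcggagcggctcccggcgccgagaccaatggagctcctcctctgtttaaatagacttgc

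The control library held 4857 barcodes and 22325208 UMIs, and the cKO-labelled library 6946 barcodes and 33726533 UMIs. After removal of doublets and of nuclei rich in mitochondrial UMIs, 4667 and 6555 nuclei were kept, and the libraries shared 9 barcodes. Levels are counts per 1000000 UMIs (CPM). Ratios are of the cKO-labelled library over control, with the interval after them. Tox3, the targeted gene, was not lower (104 and 118 CPM, 1.14, 1.08 to 1.204) and did not check the labels, because the counts do not show which part of the transcript was read. Nuclei were clustered without the 10 genes, and clusters were named "X-like" from marker lists. GNP-like nuclei were 512 of 4667 (10.97%) in control and 115 of 6555 (1.75%) in the cKO-labelled library. They formed a dividing cluster (272 and 75 nuclei, Neil3, Knl1, Kif11 and Top2a among its leading genes) and a non-dividing cluster (240 and 40 nuclei, Gli2, Ntn1 and Mfap4 among them). The 10 GNP markers together stood at 2447 and 2216 CPM in the dividing cluster and at 2488 and 2343 CPM in the non-dividing cluster, with Atoh1, the factor that defines these progenitors, and Fgfr4 at 0 in both clusters of the cKO-labelled library. Atoh1 had only 7 and 9 UMIs in these clusters of control, so that 0 in the fewer nuclei of the other library says little. The sums cover markers that moved apart, and in the dividing cluster Barhl1 stood at 109 and 6.29 CPM, Boc at 640 and 264 CPM, and Ptch1 at 584 and 869 CPM. The 8 GN markers together stood at 2616 and 3585 CPM in the dividing cluster and at 2517 and 3629 CPM in the non-dividing cluster, with none at 0, and their part in the values of GNP-like nuclei was not tested. Clusters 1 and 5 were droplets of low depth, with medians of 619 UMIs in control and 576 in the other library, and stayed unnamed. Cluster 3, which had GN markers but Slc17a6 among its leading genes, and cluster 17, which had astrocyte markers, stayed unnamed as well.

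Over all kept nuclei, Ccnd2, Cdk6, Cdkn1b and Mycn were at least 1.5-fold lower in the cKO-labelled library, and no member was 1.5-fold higher. These are 4 of the 10 members, where 7.74% of the 20214 genes that reached 20 UMIs over both libraries were lower by that fold and 7.07% were higher. The median log2 ratio was -0.41 over the members and -0.02 over all these genes. Ccnd2 had 1897 UMIs or 92.6 CPM (88.5 to 96.8) in control and 1358 UMIs or 45.0 CPM (42.7 to 47.5) in the cKO-labelled library, a ratio of 0.486 (0.453 to 0.522). For Mycn, 409 UMIs gave 19.96 CPM (18.1 to 22.0) and 283 UMIs gave 9.38 CPM (8.32 to 10.5), a ratio of 0.470 (0.403 to 0.548). Neither gene's library intervals overlapped. Cdk6 stood at 61.7 CPM (58.3 to 65.2) and 33.0 CPM (31.0 to 35.1), a ratio of 0.535 (0.492 to 0.582). Cdkn1b stood at 22.3 CPM (20.3 to 24.4) and 14.6 CPM (13.2 to 15.98), a ratio of 0.654 (0.572 to 0.747). This ratio lay just inside the fold. It lay outside with doublets kept (0.673), in nuclei with at least 1000 UMIs (0.6754), with nuclei thinned to 1000 UMIs (0.730) and without the low-depth clusters (0.6765). The dividing-cell gene Mki67 had a ratio of 0.495 (0.459 to 0.535) over the same nuclei, and its part in these whole-library values was not tested. Smaller differences with intervals below 1 were seen in Ccnd1 (0.787, 0.714 to 0.868), Ccne1 (0.727, 0.548 to 0.964), Ccne2 (0.859, 0.780 to 0.946) and Cdkn1a (0.776, 0.607 to 0.994). The Cdkn1a ratio was 0.889 without the low-depth clusters and 0.872 in nuclei with at least 1000 UMIs. Neither of these values carries an interval. The interval of Ccnd3 held 1 (1.01, 0.849 to 1.21), and that of Cdkn1c lay above 1 (1.17, 1.04 to 1.33).

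**Figure D1:**
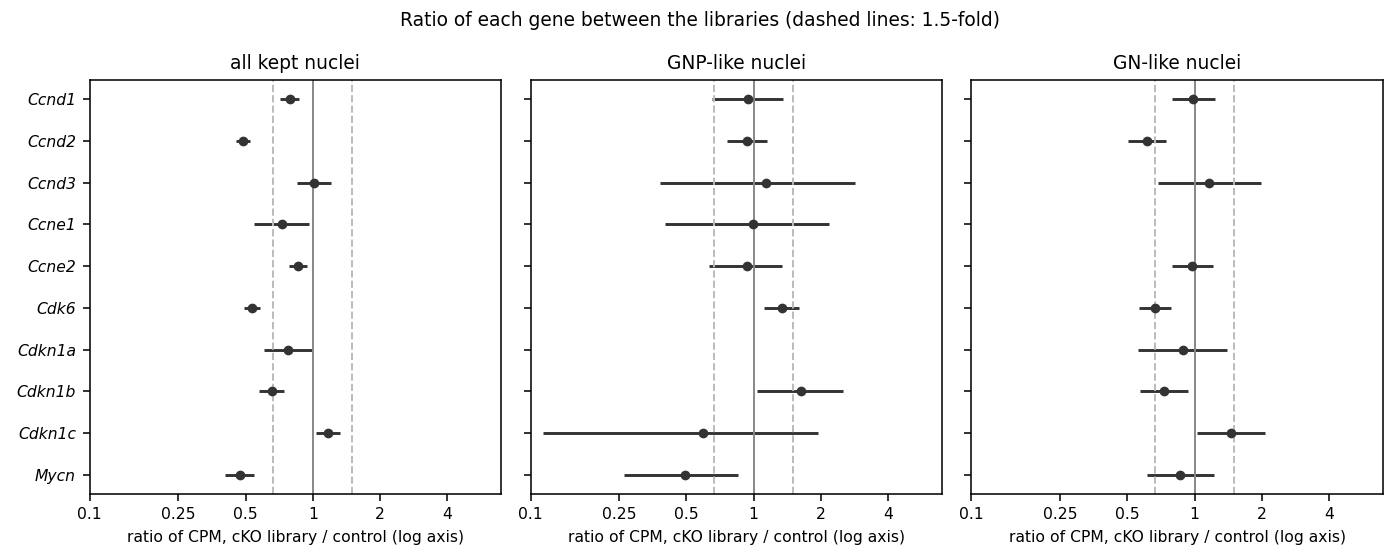
Ratio of CPM (cKO-labelled library over control, log axis) of each gene in all kept nuclei, GNP-like nuclei and GN-like nuclei, with exact 95% counting intervals as bars and 1.5-fold as dashed lines; genes under 20 UMIs are left out. Mycn sits at 0.470 in all kept nuclei and 0.492 in GNP-like nuclei, while Ccnd2 goes from 0.486 to 0.937 and Cdk6 from 0.535 to 1.34.

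To see what makeup alone gives, the control level of each cluster was weighted by the cluster's share of the UMIs of the cKO-labelled library. Cdk6 then had a ratio of 0.588 from makeup alone, beside 0.535 observed, and with the makeup of the control its ratio was 1.02. In control, 45.4% of Cdk6 UMIs came from GNP-like nuclei, against 16.3% in the other library. Cdkn1b had 0.751 from makeup alone and 1.06 at the makeup of the control. These values average over classes in which the ratios of both genes lay on opposite sides of 1, as given further on. Makeup alone gave 0.682 for Mycn and 0.751 for Ccnd2, and at the makeup of the control their ratios were 0.711 and 0.778. For this pair neither step alone reached the observed value. GNP-like nuclei gave 33.0% of Mycn UMIs in control and 4.95% in the other library, and for Ccnd2 31.7% and 8.76%. Mki67 had 0.609 from makeup alone and 1.04 at the makeup of the control. Cdkn1a (0.703) and Cdkn1c (1.21) stood away from 1 at the makeup of the control. All clusters entered these steps, the low-depth clusters 1 and 5 too. In cluster 1, with 988 droplets of control and 41 of the other library, Cdkn1a had 27 and 0 UMIs and Cdkn1c 57 and 6. Without clusters 1 and 5 the observed ratio went from 0.776 to 0.889 for Cdkn1a and from 1.17 to 1.26 for Cdkn1c. The makeup steps were not repeated without these droplets. The makeup values carry no interval, and the UMI shares of the clusters come from 1 library each.

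**Figure D2:**
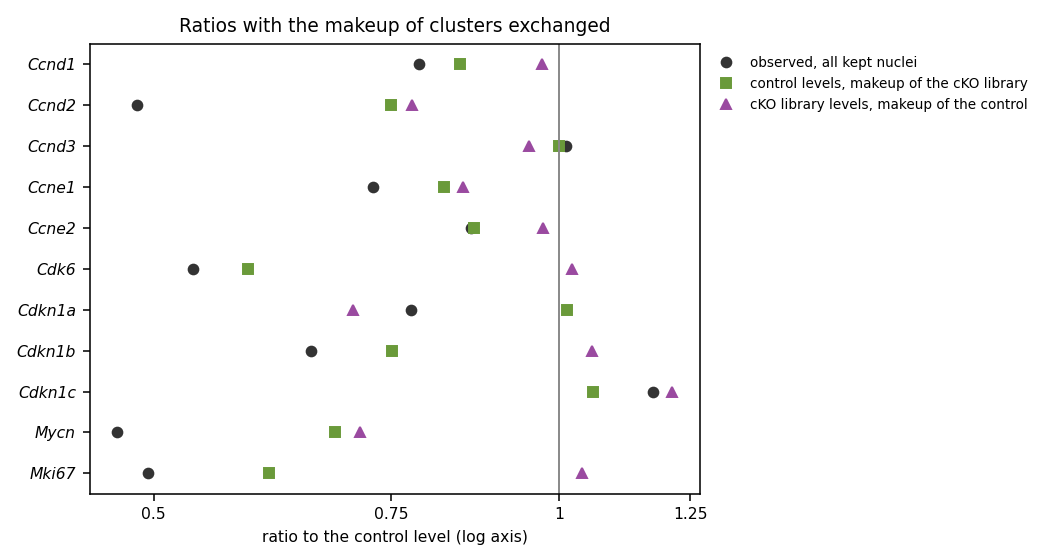
Ratio to the control level (log axis) of each gene and of Mki67: observed over all kept nuclei (circles), with control levels and the cluster makeup of the cKO-labelled library (squares), and with cKO levels and the makeup of the control (triangles). The triangles of Cdk6, Cdkn1b and Mki67 lie at 1.02, 1.06 and 1.04, whereas those of Mycn and Ccnd2 lie at 0.711 and 0.778.

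Over the nuclei that are not GNP-like, the ratio was 0.594 (0.549 to 0.642) for Ccnd2 and 0.609 (0.513 to 0.723) for Mycn. In the granule lineage, GNP-like and GN-like nuclei together, 4 of 10 were lower (Ccnd2, Ccne1, Cdk6 and Mycn) beside 14.0% lower and 5.62% higher of 15776 genes. That pool held 512 and 115 GNP-like beside 1161 and 1478 GN-like nuclei, and the part of this mixture was not tested. Ccne1 was level in GNP-like nuclei (0.998) and had 6 and 10 UMIs, or 1.02 and 1.57 CPM, in GN-like nuclei. Ratios in GNP-like and GN-like nuclei were 1.34 and 0.665 for Cdk6, 0.937 and 0.612 for Ccnd2, and 0.492 and 0.864 for Mycn.

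Among the D-type cyclins, Ccnd2 (ENSMUSG00000000184, chromosome 6, 127125162 to 127152193, minus strand, GRCm38) stood at a like level in the progenitors of both libraries and was lower in many other nuclei. In GNP-like nuclei it had 602 UMIs or 295 CPM (272 to 319) in control and 119 UMIs or 276 CPM (229 to 330) in the cKO-labelled library, a ratio of 0.937 (0.763 to 1.14). That ratio was 1.23, outside the interval, with classes set by marker gates per nucleus, and 0.795 with each nucleus thinned to 1000 UMIs. The dividing cluster had 280 and 258 CPM and the non-dividing cluster 316 and 326 CPM, both with ratios whose intervals held 1. GNP-like nuclei were the class with the highest Ccnd2 in both libraries, and in neither did their interval overlap with that of the next class, GABAergic interneuron-like nuclei (120 and 96.6 CPM). That class holds cluster 15, with mitotic genes at 2935 CPM in sum. The leading genes of cluster 15 included Tfap2b, Pax2 and Pax3, but also Nphs1, Sox2ot and Kirrel2, a marker listed for GABAergic progenitors. Ccnd2 had 616 CPM (546 to 693) there in control and 635 CPM (583 to 691) in the cKO-labelled library, above its level in GNP-like nuclei, with a ratio of 1.03 (0.890 to 1.196).

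Of the 19 clusters that reached 20 Ccnd2 UMIs, 10 had a ratio with an interval below 1, 9 had one that held 1 and 0 one above 1. These counts include the low-depth droplets, cluster 5 below 1 (7 and 36 UMIs, 0.345, 0.152 to 0.920) and cluster 1 holding 1. The share of other genes with such intervals was not counted. In cluster 3, 197 UMIs gave 123 CPM (107 to 142) in control and 69 UMIs gave 36.3 CPM (28.3 to 46.0) in the cKO-labelled library, a ratio of 0.295 (0.221 to 0.390). Bergmann glia-like nuclei, from the radial glia whose fibres guide migrating granule neurons, stood at 108 CPM (89.3 to 130) and 44.2 CPM (35.8 to 54.0), a ratio of 0.409 (0.309 to 0.541). Cluster 6, an interneuron-like cluster with Pax2 among its leading genes, stood at 119 and 49.1 CPM (0.413, 0.297 to 0.572). Cluster 17 stood at 90.5 and 33.7 CPM (0.372, 0.218 to 0.633). The levels of the libraries did not overlap in any of these clusters. GN-like nuclei had 46.8 CPM (41.4 to 52.6) and 28.6 CPM (24.6 to 33.1), a ratio of 0.612 (0.505 to 0.741). Purkinje cell-like nuclei had 17.7 and 9.68 CPM (0.548, 0.370 to 0.813), and GABAergic interneuron-like nuclei as a whole had a ratio of 0.805 (0.711 to 0.913). The intervals held 1 in oligodendrocyte lineage-like (0.779, 0.477 to 1.31) and glutamatergic CN-like (cerebellar nuclear neuron, 0.713, 0.353 to 1.51) nuclei. Microglia-like nuclei had 6 and 2 UMIs, under the 20 asked for a ratio.

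The low-depth droplets also carried less Ccnd2 in the cKO-labelled library, at 0.135 UMIs per droplet in control and 0.0626 in the other. In Purkinje cell-like nuclei the values per nucleus, 0.178 and 0.0809, were near those of the droplets, and Mki67, which postmitotic Purkinje cells should lack, stood there at 24.5 and 9.18 CPM (0.375, 0.259 to 0.541). In Bergmann glia-like nuclei the values per nucleus were 0.479 and 0.169, and Mki67 there stood at 112 and 115 CPM (1.03, 0.825 to 1.29). Cluster 3 had 0.544 and 0.164 Ccnd2 UMIs per nucleus and cluster 6 had 0.494 and 0.182. Mki67 in cluster 3 stood at 23.2 and 11.6 CPM (0.5002, 0.281 to 0.871). The part of free RNA in the Ccnd2 values of these nuclei, and that of dividing cells in cluster 3, was not tested.

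**Figure D3:**
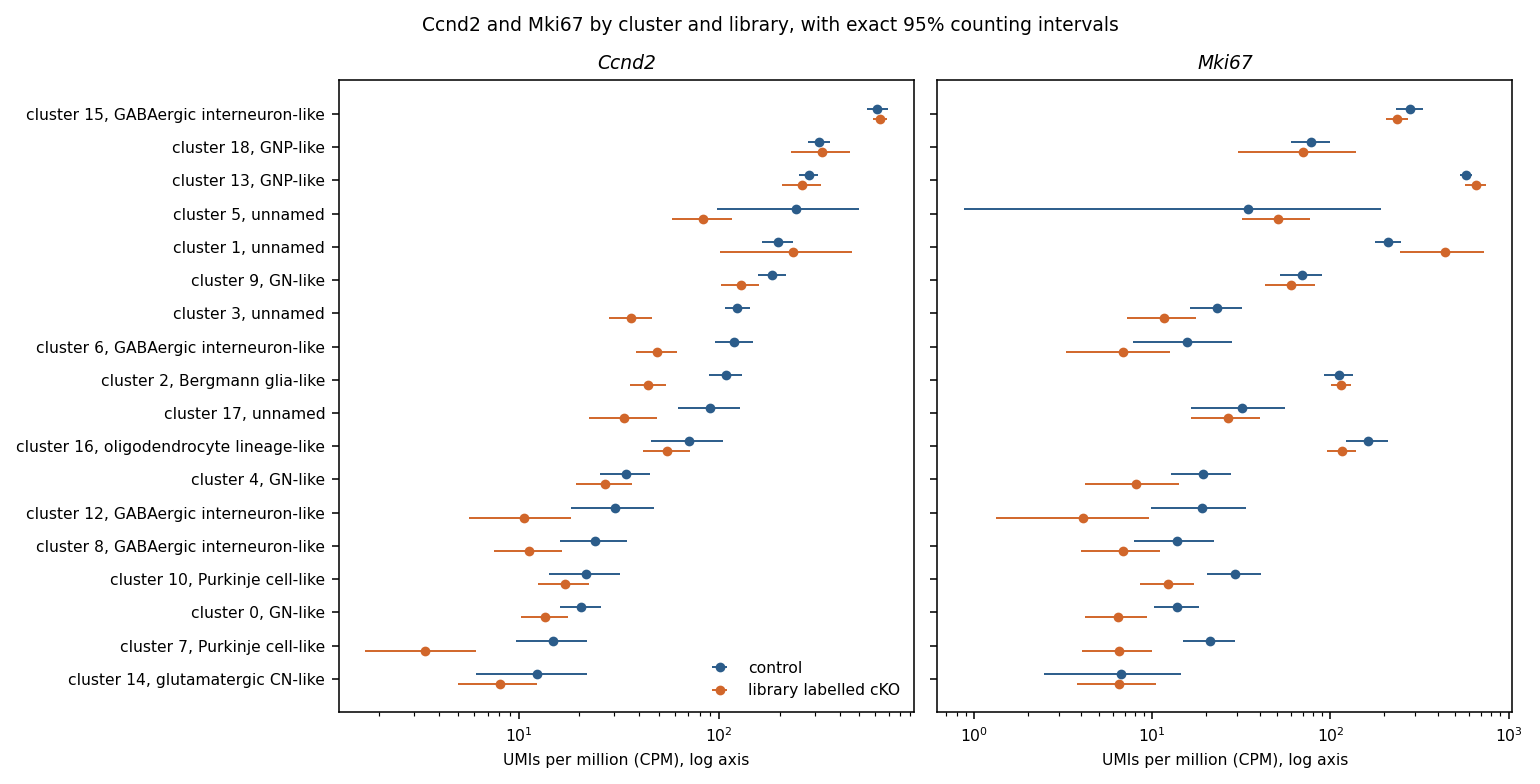
CPM of Ccnd2 (left) and of the dividing-cell gene Mki67 (right) on log axes in 18 of the 19 clusters with at least 20 Ccnd2 UMIs, in control (blue) and in the cKO-labelled library (orange), with exact 95% counting intervals. The libraries lie together for Ccnd2 in clusters 15, 18 and 13 and apart in clusters 3, 6, 2 and 17, and Bergmann glia-like cluster 2 has 108 and 44.2 CPM of Ccnd2 and 112 and 115 CPM of Mki67.

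Counts over the members differed between these classes. Bergmann glia-like nuclei had 2 members at least 1.5-fold lower (Ccnd2 and Mycn) and 1 higher (Ccnd3) of 8 measured, beside 7.17% lower and 8.93% higher over 12102 genes. Purkinje cell-like nuclei had 4 lower (Ccnd2, Ccnd3, Cdk6 and Mycn) of 10, beside 7.66% lower and 4.84% higher over 14656 genes. The interval of Ccnd3, with 22 and 25 UMIs, held 1 there. Cluster 3 had 5 lower (Ccnd2, Ccnd3, Cdk6, Cdkn1b and Mycn) of 8, beside 9.34% lower and 8.71% higher over 11389 genes. In cluster 3 the intervals of Ccnd3 (0.608, 0.274 to 1.31), Cdk6 (0.544, 0.231 to 1.23) and Mycn (0.596, 0.301 to 1.16) held 1. GABAergic interneuron-like nuclei had 0 past the fold of 10, beside 5.41% lower and 4.95% higher over 15093 genes. Of the Ccnd2 UMIs of that class, cluster 15 held 278 of 412 in control and 539 of 654 in the cKO-labelled library, and outside it Ccnd2 was past the fold in cluster 6, given above, and in clusters 8 (0.470, 0.268 to 0.823) and 12 (0.350, 0.159 to 0.748). In cluster 15, 1 of 7 was lower (Ccnd1), beside 9.91% lower and 11.4% higher over 8720 genes.

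Ccnd1 (ENSMUSG00000070348, chromosome 7, 144929931 to 144939925, minus strand) was highest in GNP-like nuclei, with 93.0 CPM (80.2 to 107) in control and 88.1 CPM (62.4 to 121) in the cKO-labelled library, a ratio of 0.948 (0.651 to 1.35). This ratio was 0.495 with each nucleus thinned at random to 1000 UMIs and 0.649 with classes set by marker gates per nucleus. Both lay past the fold, but neither carries an interval, and thinning leaves fewer UMIs to count. In the other alternatives the ratio lay between 0.914 and 1.001. Bergmann glia-like nuclei (57.7 and 57.1 CPM) and oligodendrocyte lineage-like nuclei (56.7 and 58.2 CPM) came next, and in control the interval of the Bergmann glia-like nuclei lay below that of GNP-like nuclei, while the other intervals of the pair overlapped with it. The ratios of all 3 classes held 1. Glutamatergic CN-like nuclei were the class with an interval below 1, with 29.6 and 16.02 CPM (0.540, 0.336 to 0.880). In cluster 15 there were 17 and 10 UMIs, or 37.7 and 11.8 CPM (0.313, 0.128 to 0.723), where Ccnd2 was level.

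Ccnd3 (ENSMUSG00000034165, chromosome 17, 47505051 to 47599691, plus strand) had another distribution. It was highest in microglia-like nuclei, the immune cells of the brain, at 116 CPM (70.7 to 179) in control and 133 CPM (101 to 172) in the cKO-labelled library, with no overlap with the next class. In GNP-like nuclei it had 25 and 6 UMIs, or 12.2 and 13.9 CPM (1.14, 0.382 to 2.84). Bergmann glia-like nuclei had 10 and 42 UMIs, or 9.31 and 19.3 CPM, a ratio of 2.08 (1.03 to 4.64), so that in these nuclei Ccnd3 was higher and Ccnd2 lower.

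Of the E-type cyclins, Ccne1 (ENSMUSG00000002068, chromosome 7, 38097984 to 38107534, minus strand) was higher in the dividing than in the non-dividing GNP-like cluster of control. It had 30 UMIs or 24.6 CPM in the dividing cluster and 8 UMIs or 9.71 CPM in the non-dividing cluster, a ratio of 2.53 (1.13 to 6.39). The cKO-labelled library had 7 and 1 UMIs there, with an interval that held 1. Mki67, which marks dividing cells, was 7.43 times as high in the dividing as in the non-dividing cluster of control and 9.29 times as high in the other library. Between the libraries Ccne1 in GNP-like nuclei stood at 18.6 and 18.6 CPM (0.998, 0.402 to 2.17). Ccne2 (ENSMUSG00000028212, chromosome 4, 11191351 to 11204779, plus strand) had 87.1 CPM (74.8 to 101) and 81.2 CPM (56.5 to 113) in GNP-like nuclei, a ratio of 0.932 (0.629 to 1.35). It reached 20 UMIs in 9 classes, and the interval of its ratio held 1 in all 9. Ccne1 reached 20 UMIs in 3 classes, with intervals that held 1 in all 3.

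Cdk6 (ENSMUSG00000040274, chromosome 5, 3341485 to 3531008, plus strand) differed in opposite directions along the granule lineage. In GNP-like nuclei it had 574 UMIs or 281 CPM (258 to 305) in control and 162 UMIs or 376 CPM (320 to 438) in the cKO-labelled library, a ratio of 1.34 (1.12 to 1.60). The dividing cluster had 292 and 387 CPM (1.33, 1.07 to 1.63) and the non-dividing cluster 265 and 344 CPM (1.30, 0.899 to 1.83). Mki67 in GNP-like nuclei was higher by a like ratio (1.33, 1.14 to 1.55), and in the dividing cluster its ratio was 1.13 (0.967 to 1.33). In GN-like nuclei Cdk6 had 62.0 CPM (55.8 to 68.7) and 41.2 CPM (36.4 to 46.5), a ratio of 0.665 (0.565 to 0.781). Among the GN-like clusters, cluster 9 had 173 UMIs or 209 CPM (179 to 243) in control and 54 UMIs or 81.4 CPM (61.1 to 106) in the cKO-labelled library, a ratio of 0.389 (0.281 to 0.531). Cluster 9 was the GN-like cluster with the most Gli2, a progenitor gene, which stood there at 201 and 75.4 CPM (0.375, 0.268 to 0.518), and its part in the Cdk6 value was not tested. The ratios in clusters 0 and 4, the other GN-like clusters, held 1 (0.896, 0.685 to 1.17, and 1.11, 0.815 to 1.51). With classes set by marker gates per nucleus, the Cdk6 ratio was 0.995 in GNP-like and 0.928 in GN-like nuclei.

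Away from the granule lineage, Cdk6 was high in microglia-like nuclei, at 214 CPM (151 to 295) and 241 CPM (197 to 292), where the ratio held 1 (1.13, 0.768 to 1.69). In control this level overlapped with that of GNP-like nuclei, and in the cKO-labelled library it lay below it. In cluster 15 Cdk6 stood at 122 and 173 CPM (1.42, 1.04 to 1.97). Purkinje cell-like nuclei had 30 and 20 UMIs, or 10.2 and 3.34 CPM (0.328, 0.176 to 0.596), beside the lower Mki67 there. Per nucleus this was 0.103 and 0.0279 UMIs, against 0.0365 and 0.0142 in the low-depth droplets.

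Mycn (ENSMUSG00000037169, chromosome 12, 12936093 to 12941914, minus strand) was lower within the progenitors. GNP-like nuclei had 135 UMIs or 66.1 CPM (55.4 to 78.2) in control and 14 UMIs or 32.5 CPM (17.8 to 54.5) in the cKO-labelled library, a ratio of 0.492 (0.262 to 0.854). In the dividing cluster 89 UMIs gave 73.0 CPM (58.6 to 89.8) and 9 UMIs gave 28.3 CPM (12.95 to 53.8), a ratio of 0.388 (0.172 to 0.771). The levels of the libraries did not overlap in either grouping. The non-dividing cluster had 46 and 5 UMIs, or 55.8 and 44.0 CPM, and its ratio held 1 (0.789, 0.245 to 1.98). Mki67 in the dividing cluster stood at 577 and 655 CPM, and Gli2 at 693 and 617 CPM (0.890, 0.758 to 1.04). Ptch1, the hedgehog receptor gene that the pathway itself induces, was higher in these GNP-like nuclei (545 and 865 CPM, 1.59, 1.41 to 1.79), and Gli1, another such target, had a ratio of 1.27 (0.838 to 1.88). Hhip, which encodes a hedgehog-binding protein and is also induced by the pathway, had 7 and 9 UMIs, under the 20 asked for a ratio. Mycn thus differed in direction from Ptch1. Low-depth droplets held 0.0503 and 0.0270 Mycn UMIs each, and GNP-like nuclei 0.264 and 0.122.

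GNP-like nuclei had 2 members at least 1.5-fold lower (Mycn and Cdkn1c) and 1 higher (Cdkn1b) of the 9 that reached 20 UMIs, near their background, in which 21.6% of 11157 genes were lower and 11.2% higher. Cdkn1a, with 6 and 1 UMIs, was not counted. The median log2 ratio of these members, -0.08, equalled that of all genes measured. In the dividing cluster 1 of 8 was lower (Mycn), beside 20.3% lower and 11.9% higher over 9426 genes. In the non-dividing cluster 1 of 6 was higher (Cdkn1b), beside 26.0% lower and 17.0% higher over 7834 genes.

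Among the named classes, Mycn was highest in GNP-like nuclei in both libraries, with no overlap with the next class. The low-depth droplets stood at 75.5 CPM in cluster 1 of control (50 UMIs) and 37.1 CPM in cluster 5 of the cKO-labelled library (16 UMIs). The part of free RNA in the Mycn values was not tested. Beyond the progenitors, cluster 9 had 39.9 and 19.6 CPM (0.491, 0.237 to 0.958), Bergmann glia-like nuclei 15.8 and 5.99 CPM (0.378, 0.169 to 0.827) and Purkinje cell-like nuclei 15.97 and 9.52 CPM (0.596, 0.398 to 0.896). GN-like nuclei had 12.2 and 10.5 CPM (0.864, 0.610 to 1.22), and GABAergic interneuron-like nuclei 11.4 and 9.75 CPM (0.858, 0.569 to 1.31). Both of these held 1, as did cluster 15 at 22.2 and 22.4 CPM.

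**Figure D4:**
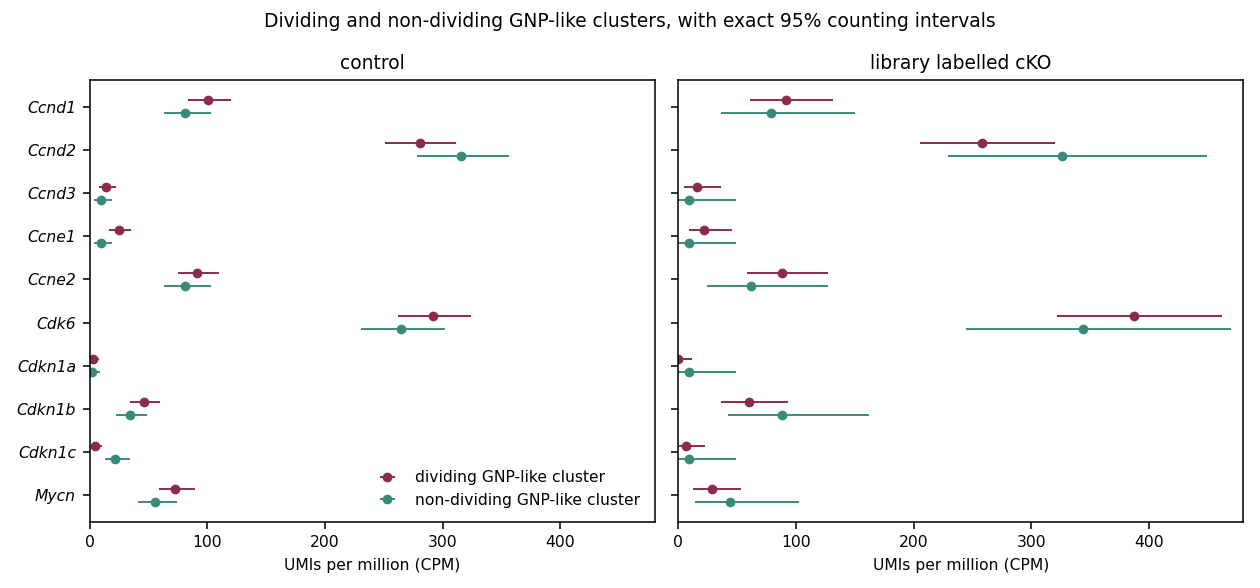
CPM of each gene in the dividing and non-dividing GNP-like clusters of control (left) and of the cKO-labelled library (right), with exact 95% counting intervals. Mycn in the dividing cluster lies at 73.0 CPM in control and 28.3 CPM in the other library, and Ccne1 in control lies at 24.6 CPM in the dividing and 9.71 CPM in the non-dividing cluster.

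Of the inhibitors, Cdkn1b (ENSMUSG00000003031, chromosome 6, 134920401 to 134925513, plus strand) was higher in the GNP-like nuclei of the cKO-labelled library and lower in its GN-like nuclei. GNP-like nuclei had 84 UMIs or 41.1 CPM (32.8 to 50.9) in control and 29 UMIs or 67.2 CPM (45.0 to 96.6) in the cKO-labelled library, a ratio of 1.64 (1.03 to 2.52). The levels themselves overlapped. In the non-dividing cluster the counts were 28 and 10 UMIs, or 34.0 and 88.1 CPM (2.59, 1.12 to 5.50), and in the dividing cluster 56 and 19 UMIs, or 45.9 and 59.8 CPM (1.30, 0.731 to 2.23). GN-like nuclei had 25.9 CPM (22.0 to 30.4) and 18.9 CPM (15.7 to 22.6), a ratio of 0.728 (0.569 to 0.931). Cluster 3 had 22.5 and 8.43 CPM (0.374, 0.194 to 0.691). In both libraries the interval of GNP-like nuclei overlapped with that of the next class, microglia-like nuclei (28.9 and 36.8 CPM).

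Among the named classes, Cdkn1c (ENSMUSG00000037664, chromosome 7, 143458339 to 143461050, minus strand) was highest in the interneurons. In the low-depth droplets it stood at 86.08 CPM in cluster 1 of control and 90.35 CPM in cluster 5 of the cKO-labelled library. GABAergic interneuron-like nuclei had 45.4 CPM (38.6 to 53.2) and 49.9 CPM (44.8 to 55.6), above the next class without overlap, and in their cluster 6 it stood at 135 CPM (109 to 164) and 111 CPM (94.8 to 130). The ratio in cluster 6 held 1 (0.826, 0.638 to 1.08). Within the GNP-like nuclei of control, Cdkn1c had the reverse pattern of Ccne1, with 6 UMIs or 4.92 CPM in the dividing cluster and 18 UMIs or 21.8 CPM in the non-dividing cluster, a ratio of 0.225 (0.0732 to 0.592). The cKO-labelled library had 2 and 1 UMIs in these clusters. For GNP-like nuclei as a whole, 24 and 3 UMIs gave a ratio that held 1 (0.592, 0.114 to 1.95) and that lay above 1 with doublets kept (1.43). In GN-like nuclei Cdkn1c was higher in the cKO-labelled library, at 9.65 and 14 CPM (1.45, 1.03 to 2.06). Cdkn1a (ENSMUSG00000023067, chromosome 17, 29090976 to 29100727, plus strand) reached 20 UMIs in 4 classes, and the interval of its ratio held 1 in all 4.

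**Figure D5:**
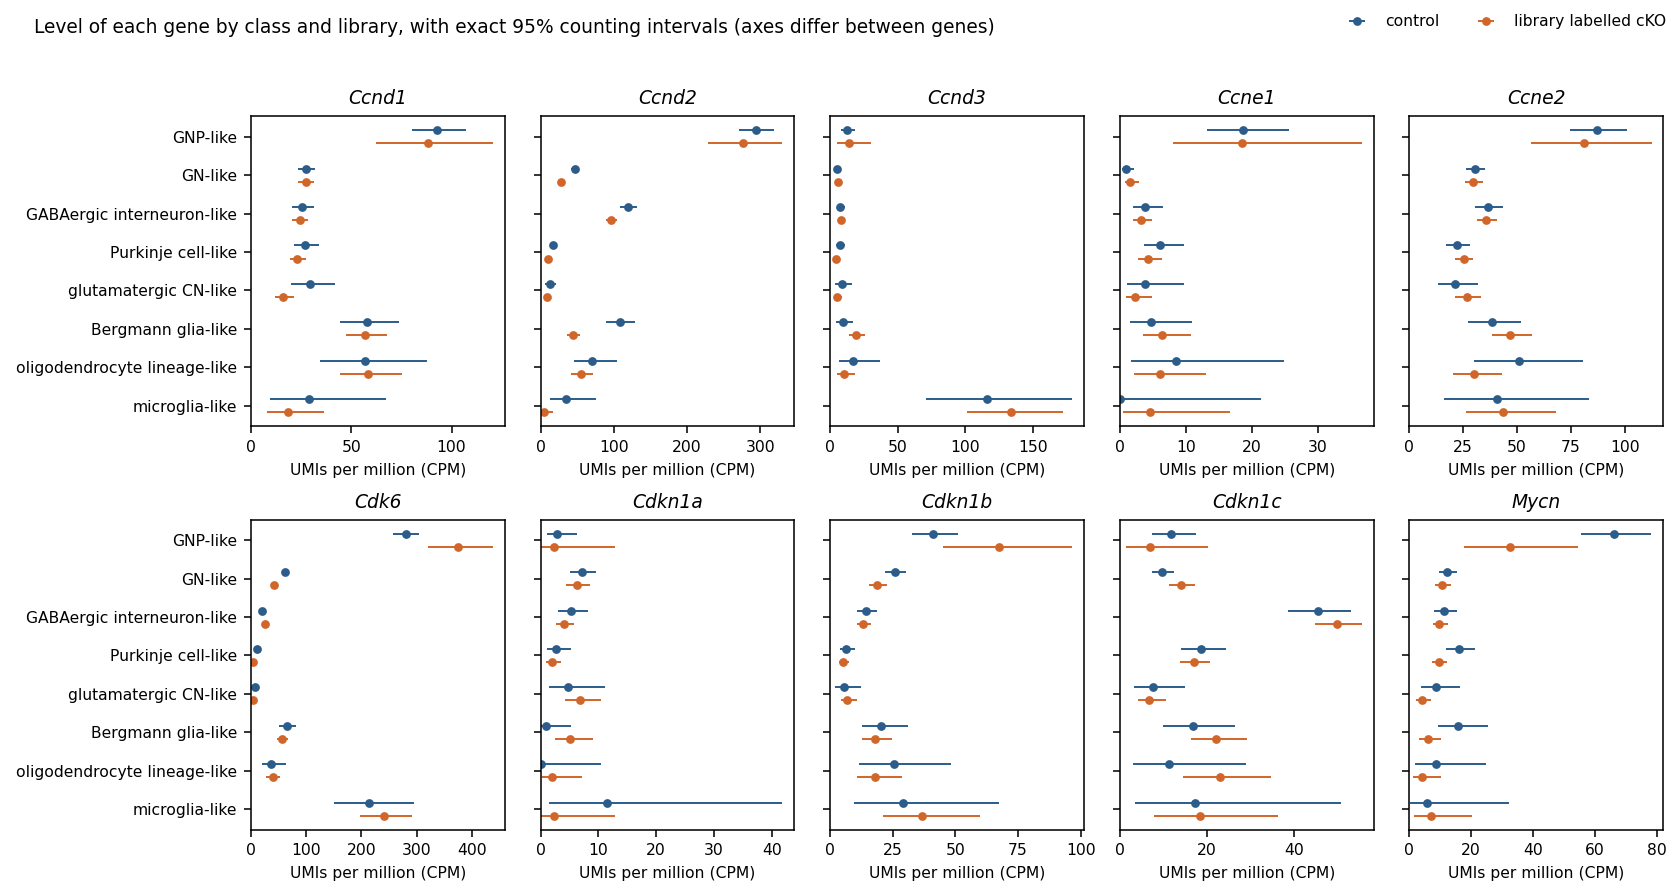
CPM of each of the 10 genes in 8 of the 9 named classes, in control (blue) and in the cKO-labelled library (orange), with exact 95% counting intervals, on axes that start at 0 and differ between genes. Ccnd1, Ccnd2, Ccne1, Ccne2, Cdk6, Cdkn1b and Mycn are highest in GNP-like nuclei in both libraries, Ccnd3 in microglia-like nuclei (116 and 133 CPM) and Cdkn1c in GABAergic interneuron-like nuclei (45.4 and 49.9 CPM).

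In GN-like nuclei, 2 of the 9 members that reached 20 UMIs were at least 1.5-fold lower (Ccnd2 and Cdk6) and 0 were higher, where 7.09% of 15011 genes were lower and 5.22% higher. Cdk6, at 0.665, lay just inside the fold and Cdkn1b, at 0.728, just outside. Ccnd1 had a ratio of 0.986 (0.791 to 1.23) there and Ccne2 0.975 (0.791 to 1.203). GNP markers in GN-like nuclei summed to 381 CPM in control, with 0 of the 10 at 0, and to 284 CPM in the cKO-labelled library, with 1 at 0. Mki67 had a ratio of 0.543 (0.406 to 0.723) in these nuclei. The part of these in the Ccnd2 and Cdk6 values was not tested.

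The wider pathway was read from 32 further G1 genes (kinases, the retinoblastoma family, E2F factors and their partners, other inhibitors, and Myc family members), of which 31 reached 20 UMIs over all kept nuclei. Of these, 5 were at least 1.5-fold lower and 1 was higher, beside 7.74% lower and 7.07% higher over all genes, and the median log2 ratio was -0.24, against -0.02 over the same genes. The lower genes were the E2F activators E2f1 (28.8 and 15.3 CPM, 0.531, 0.469 to 0.601) and E2f2 (7.17 and 3.51 CPM, 0.490, 0.378 to 0.633), the E2F repressors E2f7 (20.1 and 12.9 CPM, 0.643, 0.558 to 0.740) and E2f8 (4.64 and 2.95 CPM, 0.636, 0.471 to 0.859), and Cks1b, a subunit of cyclin-dependent kinases (4.59 and 2.65 CPM, 0.578, 0.424 to 0.787). Myc was higher, with 27 and 68 UMIs or 1.32 and 2.25 CPM (1.71, 1.08 to 2.78), opposite to Mycn.

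In GNP-like nuclei 27 of the list reached 20 UMIs, 4 were lower and 5 higher, beside 21.6% lower and 11.2% higher over all genes. The lower ones were no larger a share than among all genes, and the values of single genes are given as a description. The median was 0.01 against -0.08 over all genes. E2f1, lower over all kept nuclei, had 142 and 172 CPM there (1.21, 0.924 to 1.57), and E2f8 was higher (26.4 and 48.7 CPM, 1.84, 1.06 to 3.10). Max, the obligate partner of the Myc proteins, had 103 and 9 UMIs or 50.4 and 20.9 CPM (0.414, 0.184 to 0.817). Mxi1, which competes with Myc for Max, had 212 and 20 UMIs or 104 and 46.4 CPM (0.447, 0.268 to 0.708). Mxd4, of the same group as Mxi1, had 44 and 5 UMIs (0.539, 0.167 to 1.36), and E2f6, a repressor, had 47 and 1 UMIs (0.101, 0.00250 to 0.590). The higher genes besides E2f8 were Fbxw7, which marks cyclin E and Myc proteins for degradation (1.61, 1.23 to 2.08), the p53 gene Trp53 (1.70, 1.01 to 2.78), the Cdk4 and Cdk6 inhibitor Cdkn2c (2.03, 0.819 to 4.63) and the Max partner Mxd3 (1.67, 0.540 to 4.45), and the intervals of Cdkn2c and Mxd3 held 1. In GN-like nuclei 26 were measured, of which E2f2 (0.323, 0.125 to 0.748) and Cks1b (0.606, 0.294 to 1.21) were lower and Myc (2.79, 0.962 to 9.80) was higher, the last 2 with intervals that held 1, and these counts were near the 7.09% and 5.22% over all genes.

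The genes most like each member were sought over 18 profiles, 9 named classes in each library, among 13630 genes with at least 200 UMIs. The profiles share libraries and cell types, so the Pearson correlations of log2 CPM given in parentheses are descriptions only. Mycn was most like Sema7a (0.931), Insm1 (0.919) and Nup85 (0.914). Ccnd2 was most like Smarca5 (0.924), Hmgb3 (0.919) and Phf21b (0.913), and Ccnd1 most like Rrm2 (0.956), which encodes a subunit of ribonucleotide reductase. Cdk6 and Cdkn1b had Zfp91 in common among their 3 nearest genes (0.963 and 0.952). Ccne2 was nearest to Anp32e (0.967), Ccne1 to Gm13427 (0.922), Ccnd3 to Man2b1 (0.981), Cdkn1a to Aktip (0.880) and Cdkn1c to Dusp10 (0.790).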

How the data were processed

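Single-nucleus libraries of 12 pooled cerebella per group were counted by the authors with Cell Ranger 7.0.1 on mm10 (GRCm38). The deposited values are raw UMI counts per gene and nucleus, and whether intronic reads were counted is not given in the sources used here. The authors' methods name SoupX for free RNA, and no such correction was applied here.

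Nuclei with over 25% mitochondrial UMIs (1 in control, 5 in the cKO-labelled library) were removed, with the highest Scrublet doublet scores at 0.8% per 1000 barcodes (189 and 386; scanpy 1.11.5). Seurat 5.3.0 in R 4.3.3 integrated the libraries on 3000 variable features, without the 10 members, and clustered them on 20 dimensions at resolution 0.8. A cluster was named from at least 3 markers at least 2-fold above the median cluster and a mean log2 over its markers of at least 1, a scoring rule set on these data.

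UMIs were summed per library and class (Python 3.11.15, scipy 1.17.1). Intervals are exact Poisson for CPM, exact conditional binomial for ratios and Clopper-Pearson for shares. A gene counted as measured with 20 UMIs over both libraries and as past the fold at a ratio of 1.5 or its inverse. The scripts were tested on simulated data. Named genes are every member, list genes past the fold, the 3 most similar genes, the label checks (Tox3, Atoh1), and hedgehog and division genes; further ones were chosen after their values were seen. Members, lists and tests were chosen with earlier results of these data known. Gene coordinates are from GENCODE on GRCm38. Values of 1 named class are not reported here.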

Additional observations from a re-analysis of the deposited data

Results flagged for a closer look

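Cdk6 and Cdkn1b had counting intervals on opposite sides of 1 in different classes, and the difference between the classes was not tested. The ratio of Cdk6 (cKO-labelled library over control) was 1.34 (1.12 to 1.60) in GNP-like nuclei, 0.665 (0.565 to 0.781) in GN-like nuclei and 0.328 (0.176 to 0.596) in Purkinje cell-like nuclei. That of Cdkn1b was 1.64 (1.03 to 2.52) in GNP-like nuclei and 0.728 (0.569 to 0.931) in GN-like nuclei. Where classes were set by marker gates per nucleus, the Cdk6 ratio was 0.995 in GNP-like and 0.928 in GN-like nuclei.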

How the results depend on the processing

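Of 264 ratios of members recomputed under the alternatives, 241 lay within the counting interval of the reported ratio, 21 outside it, and 2 turned a member past the fold to the other side of 1. In all, 25 crossed 1. The 2 past the fold were Cdkn1c in GNP-like nuclei, 1.43 with doublets kept and 1.24 with marker gates per nucleus. The alternatives are not independent checks. In GNP-like nuclei, resolutions of 0.4 and 1.2, a minimum of 1000 UMIs per nucleus and removal of shared barcodes returned the reported ratio of each measured member. With a fold of 2 in place of 1.5, 2 members passed in all kept nuclei, 1 in GNP-like and 0 in GN-like nuclei. In GN-like nuclei, 1 passed with median-of-ratios scaling, 1 with nuclei thinned to 1000 UMIs, 0 with libraries merged without integration, and 1, a higher one, with marker gates; the cause was not tested. Without the low-depth clusters, an alternative added after the data had been seen, 3 members passed in all kept nuclei, and Cdkn1b no longer did. Over the alternatives, Mycn in GNP-like nuclei ranged from 0.419 to 0.524, Cdkn1b there from 1.36 to 1.99, Cdk6 there from 0.995 to 1.55, and Ccnd2 in GN-like nuclei from 0.473 to 0.801. With the UMIs of low-depth droplets subtracted, also added later, Mycn in GN-like nuclei went to 1.88. No paired analysis was possible because each group has 1 library. Depth limits the small groups, such as the 115 GNP-like nuclei of the cKO-labelled library and the 53 microglia-like nuclei of control.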

Other observations

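The further G1 genes named in the next sentences were chosen after their values were seen. In GABAergic interneuron-like nuclei 1 of 27 further G1 genes (E2f2) was at least 1.5-fold lower and 0 were higher, beside 5.41% and 4.95% of all genes measured. In Bergmann glia-like nuclei 2 of 24 (Cdk4 and E2f6) were lower and 3 (Cdk2, E2f8 and Cables1) higher, beside 7.17% and 8.93%. In Purkinje cell-like nuclei 1 of 23 (E2f1) was lower and 3 (Cdkn2d, Cks1b and Cables1) were higher, beside 7.66% and 4.84%. A gate of at least 3 UMIs of mitotic genes took in 63.3% of GNP-like nuclei in control and 69.6% in the cKO-labelled library, but also 26.0% and 15.8% of Purkinje cell-like nuclei, so no member was read from it.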
